A study of Mus musculus with 6 samples.

Results

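The OAS family comprises the interferon-induced oligoadenylate synthetases and their relatives. When a catalytically active member binds double-stranded RNA, it links ATP into short oligoadenylates, which act as a messenger in the antiviral response. Interferon raises the transcription of these genes through STAT and IRF factors, and IRF1 is 1 of the factors known to bind such promoters. Interferon signals also act on hematopoietic stem cells (HSCs), in which they can start cell division.

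The members were the 8 genes *Oas1a*, *Oas1b*, *Oas1c*, *Oas1g*, *Oas2*, *Oas3*, *Oasl1*, and *Oasl2*, taken by symbol from a table of 26264 genes. RNA from HSCs of untreated, 8-week-old female mice was sequenced with 1 library per mouse, from 3 wild-type (WT) C57Bl/6 mice and 3 *Irf1-/-* mice (B6.129S2-*Irf1 tm1Mak*/J), which lack IRF1 in every tissue. The HSCs were Lineage-, Sca-1+, c-Kit+, CD150+, CD48- bone marrow cells, and the mice of both genotypes carry the replicate numbers 2, 3, and 4. Between 43138521 and 59658080 reads per library fell on genes. The comparison asks how the level of each member differs in HSCs that lack IRF1. All fold changes below are *Irf1-/-* over WT on the scale of log2(normalized count + 1), where a normalized count is a read count per gene divided by a size factor per library.

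The gene that was targeted came first. *Irf1* stood at 10122, 11120, and 12057 normalized counts in WT replicates 2, 3, and 4 and at 9267, 9524, and 9287 in *Irf1-/-* replicates 2, 3, and 4. Its transcripts still gave reads in the knockout libraries, at 84.3% of the WT mean (limma, log2 fold change −0.24, SE 0.088, adjusted *P* = 0.170). A count over the whole gene does not separate the part that the allele removes from the part that it leaves, so it does not check the genotype labels.

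*Oas3* was the member with the largest fall. It encodes the longest synthetase of the family, with several repeated synthetase units in 1 chain. Its normalized counts were 2801, 2535, and 2481 in WT replicates 2, 3, and 4 and 951, 1339, and 910.4 in *Irf1-/-* replicates 2, 3, and 4. The genotypes did not overlap, and *Irf1-/-* replicate 3 was the highest of its group. The *Irf1-/-* mean of 1067 ± 237 (SD, n = 3) was 40.9% of the WT mean of 2605 ± 172 (SD, n = 3). The log2 fold change was −1.31 (limma, SE 0.14, 95% interval −1.61 to −1.01, adjusted *P* = 0.000124). By unadjusted *P*, *Oas3* was number 35 of the 17404 genes tested, and by size it was number 61 of the 166 genes called lower.

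A gene was called when its adjusted *P* was under 0.05 and its log2 fold change was beyond 0.58 in either direction. All 8 members had a mean normalized count of at least 10 and were tested. The call of *Oas3* made 1 of 8 members lower, beside 0.954% of all tested genes. None of the 8 was called higher by limma, beside 0.96% of all tested genes, and none was called higher by edgeR or DESeq2. At an unadjusted *P* under 0.05, 3 of 8 members were lower (*Oas3*, *Oasl2*, and *Oasl1*), beside 8.07% of all tested genes, and 0 were higher, beside 8.38%. The median log2 fold change of the members was −0.074, with 5 below and 3 above 0, and that of all tested genes was −0.0028. Without *Irf1-/-* replicate 3 the log2 fold change of *Oas3* was −1.48, and the call was kept without each of the 6 libraries in turn. The call was lost (limma, adjusted *P* = 0.0868) when the prior variance was not allowed to follow the expression level, a setting that left 33 genes called lower.

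The *Oasl* genes encode synthetase-like proteins that end in ubiquitin-like domains. *Oasl2*, which in the mouse retains synthetase activity, had normalized counts of 10015, 8585, and 8937 in WT replicates 2, 3, and 4 and of 6807, 7882, and 5797 in *Irf1-/-* replicates 2, 3, and 4. The highest *Irf1-/-* library was lower than the lowest WT library. The log2 fold change of −0.43 (limma, SE 0.11, 95% interval −0.67 to −0.20, adjusted *P* = 0.0484) did not reach the fold threshold, so *Oasl2* was not called. Its adjusted *P* ranged from 0.00639 to 0.344 over the 16 alternative fits in limma, edgeR, and DESeq2 and was under 0.05 in 9 of them.

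*Oasl1*, which lacks synthetase activity and is known to restrain translation of *Irf7* mRNA, had normalized counts of 1423, 929, and 1135 in WT replicates 2, 3, and 4 and of 786, 987, and 788 in *Irf1-/-* replicates 2, 3, and 4. The groups overlapped through *Irf1-/-* replicate 3 and WT replicate 3. The log2 fold change was −0.43 (limma, SE 0.16, 95% interval −0.78 to −0.085, adjusted *P* = 0.185) and was not called.

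*Oas2* encodes a synthetase with a pair of synthetase units. Its normalized counts were 1548, 1145, and 1173 in WT replicates 2, 3, and 4 and 1236, 1244, and 1108 in *Irf1-/-* replicates 2, 3, and 4. The groups overlapped, and the log2 fold change of −0.096 (limma, 95% interval −0.39 to 0.19, adjusted *P* = 0.811) was not called. *Oas2* lies next to *Oas3* in the gene order of chromosome 5 of GRCm38.p6, where *Oas1e* is the neighbor on the other side.

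The *Oas1* genes encode the small synthetases with a single unit, and the mouse has many copies in a row. *Oas1a*, an active synthetase, had normalized counts of 3399, 3249, and 2883 in WT replicates 2, 3, and 4 and of 3272, 4149, and 3039 in *Irf1-/-* replicates 2, 3, and 4. The groups overlapped, *Irf1-/-* replicate 3 was the highest of the 6 libraries, and the log2 fold change was 0.12 (limma, 95% interval −0.13 to 0.38, adjusted *P* = 0.689). *Oas1g*, the other active copy among the members, had a log2 fold change of −0.053 (limma, 95% interval −0.39 to 0.29, adjusted *P* = 0.926), with normalized counts of 738 to 888 in WT and 631 to 909 in *Irf1-/-* HSCs.

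*Oas1b*, the flavivirus resistance gene that is truncated in common laboratory strains, was the member with the highest log2 fold change. Its normalized counts were 588, 427, and 535 in WT replicates 2, 3, and 4 and 624, 599, and 706 in *Irf1-/-* replicates 2, 3, and 4. The 3 *Irf1-/-* libraries were above the 3 WT libraries, but the log2 fold change of 0.32 (limma, SE 0.16, 95% interval −0.027 to 0.68, adjusted *P* = 0.357) was not called. *Oas1c*, thought to lack synthetase activity, ranged from 523 to 598 in WT and from 497 to 749 in *Irf1-/-* HSCs, with a log2 fold change of 0.16 (limma, 95% interval −0.20 to 0.53, adjusted *P* = 0.723). In all, 2 of 8 members lay below WT with no overlap, *Oas3* and *Oasl2*, beside 9.27% of all tested genes, and 1 of 8 lay above, *Oas1b*, beside 10.6%.

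**Figure D1:**
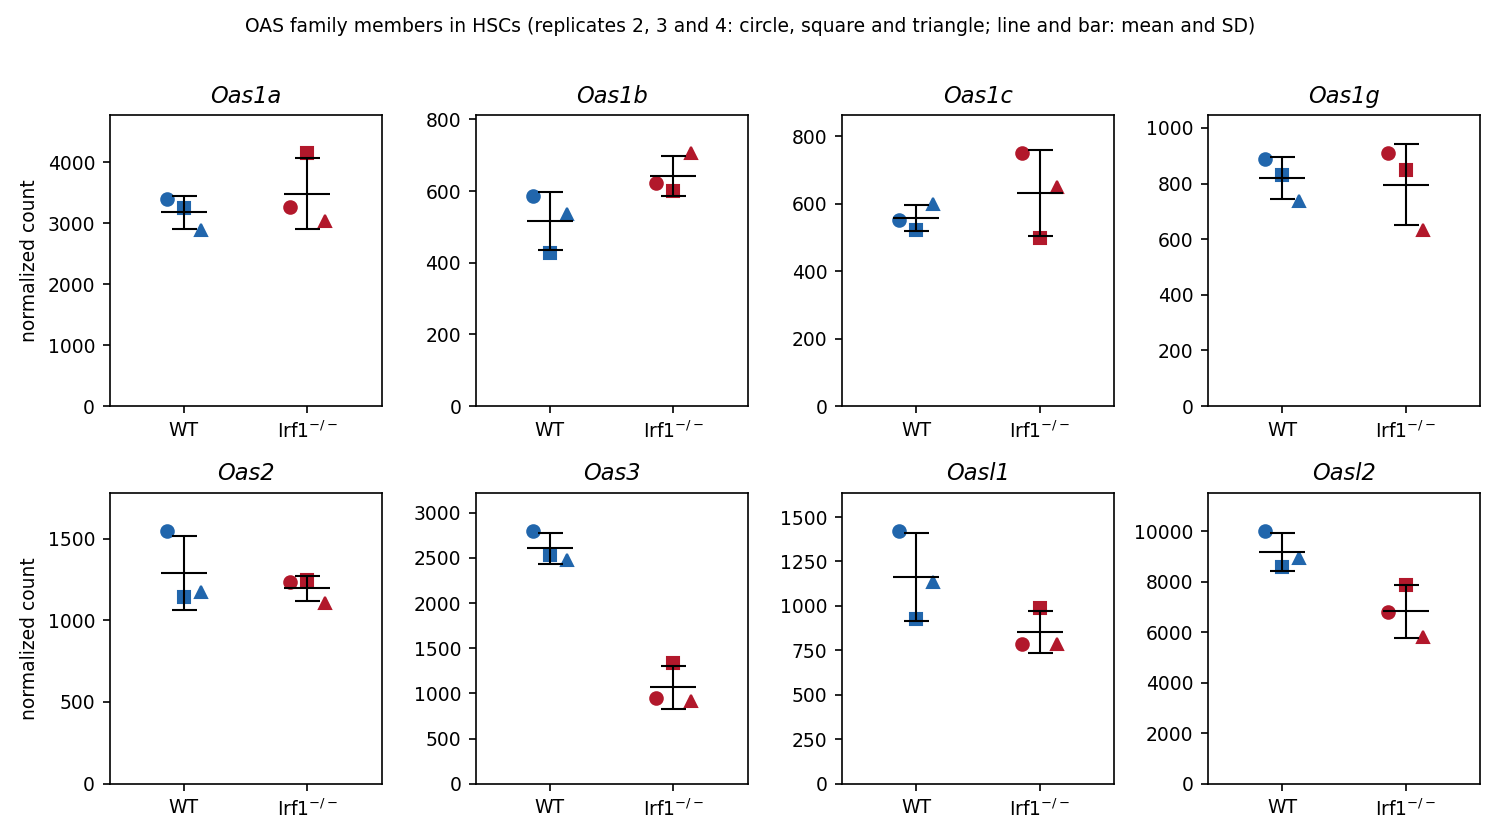
Normalized counts of the 8 members in each library, with WT in blue and *Irf1-/-* in red, symbols for replicates 2, 3, and 4, and black marks for the mean and SD of 3 mice; each axis starts at 0. The *Oas3* panel shows WT libraries at 2481 to 2801 and *Irf1-/-* libraries at 910.4 to 1339, whereas the groups overlap for *Oas1a*, *Oas1c*, *Oas1g*, *Oas2*, and *Oasl1*.

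Reads of near-identical copies can be exchanged or dropped in counting. Of the 100-base windows in the annotated coding transcripts of *Oas1a* (GENCODE vM1), 34.9% occurred unaltered in *Oas1g*, and 33.0% of the windows of *Oas1g* occurred in *Oas1a*. The values of *Oas1a* and *Oas1g* are therefore uncertain in their split. For *Oas1b*, *Oas1c*, *Oas2*, *Oas3*, *Oasl1*, and *Oasl2*, 0 windows occurred in a transcript of another gene.

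The members were also compared with each other within each library, which sets aside the scaling between libraries. The log2 ratio of a pair was calculated per library and compared between genotypes by an exact two-sided permutation test, in which 3 mice against 3 cannot go below *P* = 0.1. Over the 28 pairs, the ratio did not overlap between genotypes in 15, each at exact permutation *P* = 0.1 (0.187 after adjustment over the 28 pairs). All 7 pairs that hold *Oas3* were among the 15, and 8 of the 21 other pairs were. Pairs that share a member are not independent, and the share of non-overlapping pairs among other genes was not computed.

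The log2 ratio of *Oas3* to *Oasl2* was −1.84, −1.76, and −1.85 in WT replicates 2, 3, and 4 and −2.84, −2.56, and −2.67 in *Irf1-/-* replicates 2, 3, and 4. The ratio was lower in each *Irf1-/-* library than in any WT library, and its means differed by −0.87. The log2 ratio of *Oas1a* to *Oasl2* was higher in *Irf1-/-* HSCs by 0.56, with values of −1.06 to −0.93 against −1.63 to −1.40 in WT. In contrast, the ratio of *Oasl1* to *Oasl2* moved by 0.0035 (exact permutation *P* = 1.0), with values of −3.21 to −2.81 in WT and −3.11 to −2.88 in *Irf1-/-* HSCs.

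Levels of different genes were set side by side only per kilobase of annotated exon. In WT HSCs, *Oasl2* led with 2365 ± 192 normalized counts per kilobase (SD, n = 3), followed by *Oas1a* with 1590 ± 133, and the WT ranges of these genes did not overlap each other or any other member. *Oas3* was number 3 with 498 ± 32.8, and from there to *Oas1c*, the lowest with 217 ± 14.7, each member overlapped the next in order. In *Irf1-/-* HSCs, *Oasl2* with 1759 ± 269 and *Oas1a* with 1745 ± 293 overlapped, and *Oas3* was the lowest of the 8 with 204 ± 45.3, overlapping *Oas1c* with 246 ± 49.4.

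The share of *Oas3* in the summed family level per kilobase was 8.10%, 8.48%, and 8.26% in WT replicates 2, 3, and 4 and 3.53%, 4.35%, and 3.76% in *Irf1-/-* replicates 2, 3, and 4. The share of *Oas1a* was 25.1% to 28.4% in WT and 31.7% to 35.2% in *Irf1-/-* HSCs, again with no overlap. The summed level itself was 5716 to 6612 per kilobase in WT and 4635 to 5891 in *Irf1-/-* HSCs (exact two-sided permutation *P* = 0.3), so the groups overlapped. The *Oas1* members together stood at 110.0% of WT and the *Oasl* members together at 74.2%, the latter with no overlap (exact two-sided permutation *P* = 0.1, the smallest possible).

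**Figure D2:**
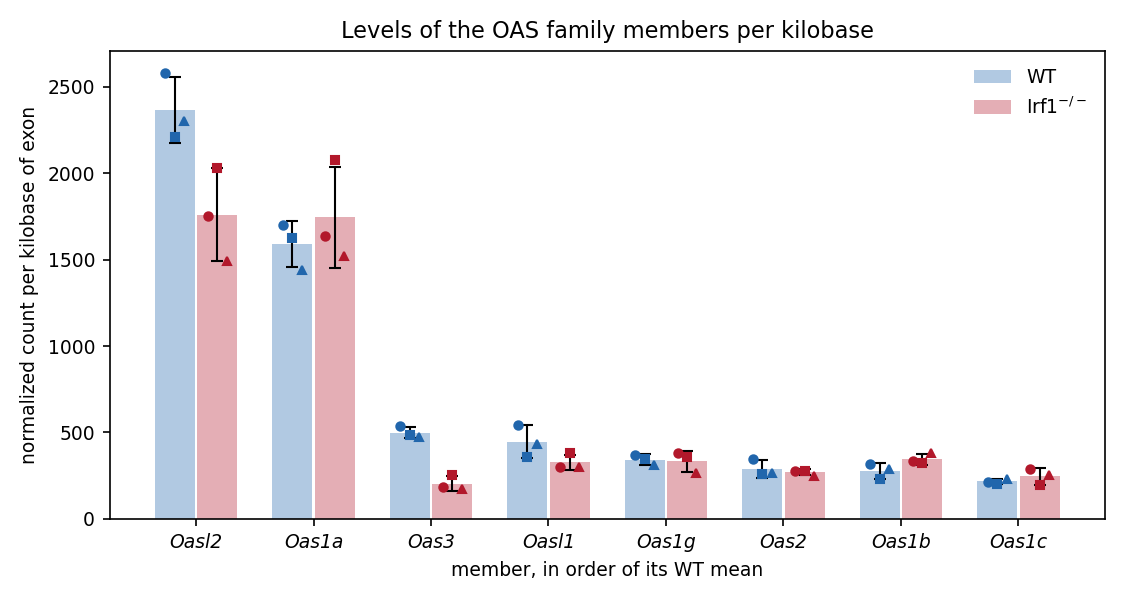
Normalized counts per kilobase of exon for the 8 members in order of the WT mean, with WT in blue and *Irf1-/-* in red; bars show the mean, error bars the SD of 3 mice, and symbols the single libraries. *Oas3* stands at 498 in WT and at 204 in *Irf1-/-* HSCs, where it is the lowest bar.

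The remaining *Oas1* copies were close to silent. Reads on *Oas1d* numbered 5, 7, and 21 in WT replicates 2, 3, and 4 and 1, 1, and 0 in *Irf1-/-* replicates 2, 3, and 4. *Oas1e* had at most 6 reads and *Oas1h* at most 13 in any library, and neither they nor *Oas1d* reached the mean of 10 needed for the test. *Oas1f* had 3 to 33 reads and a log2 fold change of 0.35 with a 95% interval from −1.47 to 2.16, which was too wide to show a difference.

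The genes of the enzymes known to degrade oligoadenylates, *Pde12* and *Akap7*, were not called by limma, edgeR, or DESeq2. Their log2 fold changes were −0.17 (limma, adjusted *P* = 0.534) and 0.056 (limma, adjusted *P* = 0.903). When 1 library was left out, *Pde12* ranged from −0.27 to −0.089 and *Akap7* from −0.010 to 0.18. The direction of *Akap7* turned in 2 of its 16 alternatives. *Abce1*, which encodes a ribosome recycling factor, had a log2 fold change of −0.27 (limma, adjusted *P* = 0.220) and was not called either.

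Among genes that carry interferon signals to the OAS promoters, *Stat2* and *Irf9*, which encode parts of an interferon-stimulated transcription complex, were not called. *Stat2* had a log2 fold change of 0.11 (limma, adjusted *P* = 0.658) and *Irf9* one of 0.30 (limma, adjusted *P* = 0.0765). The *Irf9* libraries ranged from 8691 to 9476 in WT and from 10458 to 11535 in *Irf1-/-* HSCs and did not overlap. The receptor genes *Ifnar1*, *Ifngr1*, and *Ifngr2* and the kinase gene *Jak1* also lay above WT with no overlap. Their log2 fold changes were 0.25, 0.27, 0.35, and 0.17, and none was called. Of all tested genes, 10.6% lay above WT with no overlap. The receptor gene *Ifnar2* and the kinase genes *Jak2* and *Tyk2* overlapped between genotypes, at log2 fold changes of −0.0032, −0.0089, and 0.10.

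The interferon genes themselves gave few reads. *Ifnb1* ranged from 1 to 51 reads in WT and from 8 to 25 in *Irf1-/-* libraries, *Ifna4* had at most 12 reads, and *Ifng* had 6 reads in WT replicate 3 and 0 in each of the other libraries. No difference in these genes could be shown from these reads.

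The other sensors of double-stranded RNA and the proteins that act with them or after them gave 1 call among 9 genes. It was a call of lower, beside 0.954% of all tested genes. *Zbp1*, a sensor of left-handed nucleic acid that triggers cell death, had normalized counts of 1263, 1250, and 1084 in WT replicates 2, 3, and 4 and of 51.2, 25.1, and 51.9 in *Irf1-/-* replicates 2, 3, and 4. This was 3.56% of the WT mean (limma, log2 fold change −4.85, SE 0.28, adjusted *P* = 1.61e-07). The other 8 ranged from −0.14 (*Ifih1*, the MDA5 gene) to 0.11 (*Adar*, an RNA-editing deaminase), and *Eif2ak2*, which encodes the kinase PKR, had a log2 fold change of 0.065 (limma, 95% interval −0.24 to 0.37, adjusted *P* = 0.891).

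Of 10 further interferon-stimulated antiviral genes, 4 were called lower by limma and none higher, beside 0.954% and 0.96% of all tested genes. They were *Ifit3* (log2 fold change −1.89, adjusted *P* = 0.00103), *Mx1* (−1.24, adjusted *P* = 0.0368), *Ifit2* (−0.69, adjusted *P* = 0.00111), and *Ddx60* (−0.69, adjusted *P* = 0.00590). *Ifit2* and *Ifit3* encode proteins that bind viral RNA or its partners, and *Mx1* encodes a GTPase that blocks influenza viruses. The calls of *Ifit3*, *Ifit2*, and *Ddx60* were lost without the trend in the prior variance (limma, adjusted *P* = 0.105, 0.0892, and 0.124) and kept in the other 15 alternatives. The call of *Mx1* was lost without *Irf1-/-* replicate 2 or 4, without any 1 of the WT replicates, and in 2 other alternatives, with adjusted *P* from 0.00146 to 0.199 over all 16 in limma, edgeR, and DESeq2.

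Among close relatives of these genes, *Ifit1* and *Mx2* were not called, whereas *Ifit3b*, described below, was called lower. *Ifit1* had a log2 fold change of −0.21 (limma, adjusted *P* = 0.497) beside −0.69 and −1.89 for *Ifit2* and *Ifit3*, and *Mx2* one of 0.25 (limma, adjusted *P* = 0.713) beside −1.24 for *Mx1*. When 1 library was left out, *Ifit1* ranged from −0.35 to −0.087 and *Mx2* from 0.016 to 0.52. The differences between these relatives were not tested. *Isg15* was called lower only without *Irf1-/-* replicate 3, among its 16 alternatives. The 10 genes had a median of −0.52, with 9 below 0.

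**Figure D3:**
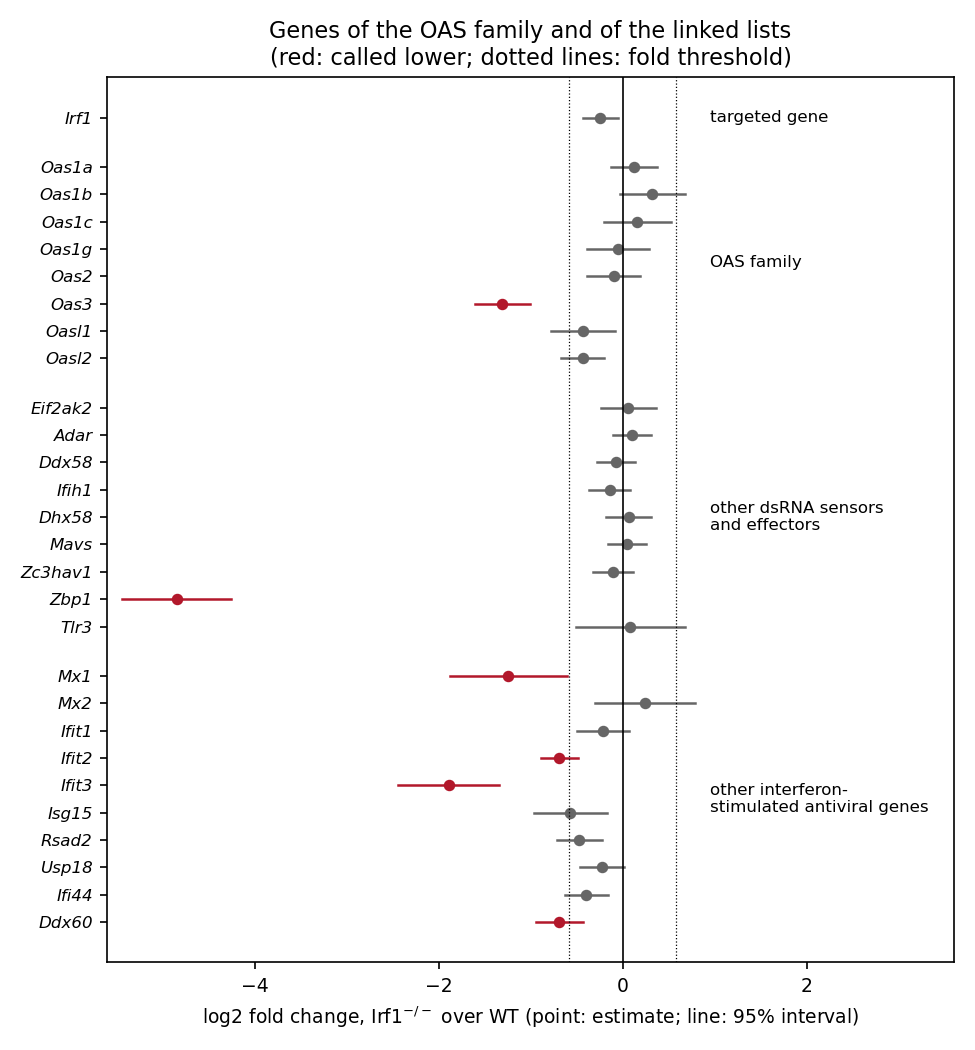
Log2 fold changes of *Irf1*, the 8 members, and the genes of 2 linked lists, with points for the limma estimate, lines for its 95% interval, red for genes called lower, and dotted lines at the fold threshold of 0.58. *Oas3* at −1.31 and *Zbp1* at −4.85 stand apart from most genes of their lists.

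The 5 tested genes whose log2 values over the 6 libraries were most like those of *Oas3* were *Ifit3b* (Pearson *r* = 0.993), *Ripply3* (0.991), *Nol10* (0.991), *Rnf122* (0.991), and *Mrpl32* (0.989). *Ifit3b* is a close relative of *Ifit3*, *Nol10* encodes a nucleolar protein, and *Mrpl32* a protein of the mitochondrial ribosome. Of these, *Ifit3b* (log2 fold change −2.23), *Ripply3* (−1.20), and *Rnf122* (−0.61) were called lower, whereas *Nol10* (−0.55) and *Mrpl32* (−0.23) were not. With 6 libraries in 2 genotypes, such an *r* includes the gap between the groups.

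The promoters of the members differ in the elements that interferon-activated factors are known to bind. A window of 300 bases around the transcription start (250 before, 50 after) was found in RefSeq (GRCm38.p6) for 6 members, *Oas1a*, *Oas1c*, *Oas1g*, *Oas3*, *Oasl1*, and *Oasl2*. The core of the interferon-stimulated response element, GAAANNGAAA on either strand, occurred in 4 of them, *Oas1a*, *Oas1c*, *Oas1g*, and *Oas3*, beside 3.44% of all 32851 promoters. The core of the gamma-activated site, TTCNNNGAA, which reads alike on both strands, occurred in 1, *Oas1a*, beside 8.3% of all promoters.

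The 250 bases before the start are shown for *Oas3*, the member called lower, and for *Oas1a*, an active synthetase that was not called. Both hold the response element core, which is in capitals. *Oas3* lies at chr5:120777660-120777909 and *Oas1a* at chr5:120907526-120907775, both on the minus strand of GRCm38.p6.
*Oas3*: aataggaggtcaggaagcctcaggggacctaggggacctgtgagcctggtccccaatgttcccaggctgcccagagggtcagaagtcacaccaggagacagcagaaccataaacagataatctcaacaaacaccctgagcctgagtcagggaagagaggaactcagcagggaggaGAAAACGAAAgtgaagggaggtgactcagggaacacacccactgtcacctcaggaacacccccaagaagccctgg
*Oas1a*: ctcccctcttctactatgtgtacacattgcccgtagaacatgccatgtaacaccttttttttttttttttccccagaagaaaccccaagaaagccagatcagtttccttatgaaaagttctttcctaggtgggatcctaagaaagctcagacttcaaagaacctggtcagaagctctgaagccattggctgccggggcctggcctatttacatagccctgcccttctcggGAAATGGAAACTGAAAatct
The core in *Oas3* is a single match, GAAAACGAAA, that starts 75 bases before the transcription start. In *Oas1a*, 2 overlapping matches form the 16-base run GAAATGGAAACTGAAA, which starts 20 bases before the start. The same run stands 18 bases before the start of *Oas1g*, and its reverse complement, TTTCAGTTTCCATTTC, in *Oas1c*. On either strand, the run occurs in 7 of the 32851 promoters, which is 0.0213%. These belong to *Oas1a*, *Oas1c*, *Oas1g*, *Apol9a*, and *Apol9b*. The count thus includes *Oas1a*, from which the run was taken, and is not an independent background.

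A match describes letters in a window and does not show that a factor binds there. The core was present in *Oas3*, which was called lower, and in *Oas1a*, *Oas1c*, and *Oas1g*, which were not called. The windows of *Oasl1* and *Oasl2* did not hold the core. Neither gene was called, but both had a log2 fold change of −0.43, and *Oasl2* lay below WT with no overlap.

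The label of the cells was checked against marker genes. All 8 HSC markers were expressed, led by *Kit* with 80517 to 84043 normalized counts in WT and 77902 to 88715 in *Irf1-/-* HSCs. None passed both thresholds in limma, edgeR, or DESeq2 with all 6 libraries. At an unadjusted *P* under 0.05 in limma, 1 of the 8 was lower, beside 8.07% of all tested genes, and 5 were higher, beside 8.38%. *Ly6a*, which encodes the sort marker Sca-1 and is itself induced by interferon, had a log2 fold change of −0.43 (limma, adjusted *P* = 0.0245), and *Procr*, a marker of long-term HSCs, one of 0.52 (limma, adjusted *P* = 0.0112), which passed both thresholds at 0.58 without WT replicate 2.

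Markers of another lineage differed between the genotypes beside *Oas3*. Of 3 megakaryocyte genes, 2 were called lower, beside 0.954% of all tested genes. They were *Pf4* (limma, log2 fold change −1.11, adjusted *P* = 0.00334) and *Gp1bb* (limma, −0.90, adjusted *P* = 0.00320). Both calls were lost without the trend in the prior variance (limma, adjusted *P* = 0.238 and 0.187). The third, *Itga2b*, was called lower only without WT replicate 4, among its 16 alternatives. The summed level of the 3, led by *Itga2b*, was 43544, 54902, and 41180 in WT replicates 2, 3, and 4 and 36825, 21698, and 31492 in *Irf1-/-* replicates 2, 3, and 4. The erythroid factor gene *Klf1* was called lower as well (limma, log2 fold change −0.72, adjusted *P* = 0.0361), a call lost without *Irf1-/-* replicate 2 or 3, WT replicate 2 or 3, or the trend in the prior variance. Over its 16 alternatives the log2 fold change ranged from −0.84 to −0.50. The globin gene *Hbb-bt* was at 0 reads in each library. Their part in the change of *Oas3* was not tested, and in bulk RNA fewer cells of a kind and less RNA per cell cannot be told apart.

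Markers of B cells, T and NK cells, monocytes and macrophages, neutrophils, and plasmacytoid dendritic cells gave no call in limma, edgeR, or DESeq2. Of these 20 genes 18 were tested, and 1, *Nkg7*, was lower at an unadjusted *P* under 0.05 in limma, beside 8.07% of all tested genes. The lack of a call compares genotypes and does not show that these genes were silent. Mean normalized counts in WT and *Irf1-/-* HSCs were 26100 and 27876 for *Lyz2*, a monocyte and macrophage marker. They were 3032 and 2395 for *Nkg7*, and 2716 and 2883 for the B cell marker *Cd79b*. The other markers of these lists had lower means in both genotypes. WT replicate 4 stood apart in 2 of the 4 neutrophil markers, *S100a8* with 1033 and *S100a9* with 1246 normalized counts there and at most 110.0 and 131 in the other 5 libraries, but not in *Mpo* or *Elane*. It also stood apart in the plasmacytoid dendritic markers, whose summed level was 195 there and 30.4 to 59.2 in the others. Without that library the log2 fold change of *Oas3* was −1.34 (limma, adjusted *P* = 0.000494).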

How the data were processed

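RNA-seq libraries of HSCs from 3 WT and 3 *Irf1-/-* mice were compared. The signal that the authors deposited is a normalized count per gene: SMART-Seq v4 and Nextera XT libraries, without molecular identifiers, were trimmed with Trim Galore, aligned with HISAT2 (mm39 in the submitters' processing notes), counted with Htseq-count, and divided by DESeq2 size factors. Versions, annotation, and strand setting are not given in the sources used here. Dividing each column by its smallest value above 0 gave whole reads for 100.0% of values (tolerance 0.001 read at 1 read, wider by the square root of the count).

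The test took the 17404 of 26264 genes whose normalized counts averaged 10 or more, and ran on log2(normalized count + 1) with limma 3.58.1 (trend in the prior variance, Benjamini-Hochberg adjustment over all tested genes, R 4.3.3). edgeR 4.0.16 called 161 genes lower and 162 higher on the recovered reads, and DESeq2 1.42.0 called 209 and 295. The 95% intervals are those of the limma log2 fold change between genotype means. They rest on a variance between mice that limma moderates over all tested genes, and do not span the values of single mice. Libraries of 1 genotype differed by more than counting noise, with a mean chi-square per gene of at least 16.0. Exon lengths and transcripts came from GENCODE vM1, matched by symbol for all 8 members, and promoters from RefSeq. The named genes were *Irf1*, the members, 6 lists of linked genes and markers of 8 cell types, and the 5 genes most like each called member. The members and lists were chosen with earlier results of these data known. Some genes of these lists, and the list counts and medians that include them, are not reported here.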

Additional observations from a re-analysis of the deposited data

How the results depend on the processing

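Over the 16 alternatives of each member, 123 of 128 log2 fold changes kept their direction and whether the member was called. A single threshold was crossed more often: the adjusted *P* of *Oasl2* was under 0.05 in 9 of its 16 alternatives. The call of *Oas3* was lost without the trend in the prior variance (log2 fold change −1.31, adjusted *P* = 0.0868, limma), where 0 members and 33 genes were called lower and 7 higher. When 1 library was left out, the log2 fold change of *Oas1a* ranged from −0.0076 (without *Irf1-/-* replicate 3) to 0.22, that of *Oas1g* from −0.16 to 0.11 (without *Irf1-/-* replicate 4, and 0.0071 without WT replicate 2), and that of *Oas2* from −0.17 to 0.044 (without WT replicate 2). Another 3 members moved but did not change direction. *Oas1c* fell to 0.029 when *Irf1-/-* replicate 2 was omitted and rose to 0.33 when replicate 3 of that genotype was. *Oasl1* came to −0.27 on omitting WT replicate 2 and to −0.58 on omitting WT replicate 3, whereas *Oas1b* came to 0.42 and 0.19 on the same omissions. The cause was not tested. Quantile normalization and median centring turned the direction of no member.

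With adjusted *P* under 0.05 alone, 2 members, 260 genes lower, and 301 higher passed. DESeq2 called 295 genes higher. Leaving out 1 library gave 1 member called lower each time, 105 to 265 genes lower, and 83 to 304 genes higher. Both highest counts came without WT replicate 4; the lowest came without WT replicate 3 for lower genes and without *Irf1-/-* replicate 4 for higher genes.

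With the replicate block, 1 member, 196 genes lower, and 219 higher were called. Same-numbered libraries had correlations of deviations of −0.094, 0.246, and 0.147 for replicates 2, 3, and 4. *Irf1-/-* replicates 3 and 4 correlated best with the WT replicate of the same number. *Irf1-/-* replicate 2 correlated best with WT replicate 4, at 0.251. As this was mixed, the numbers were not taken as pairs in the main test.

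Comparisons between members and of the called genes of the other lists under these settings, and lengths of the longest coding transcript (*Oas3* number 3 in WT and number 8 in *Irf1-/-* HSCs), were added after the data were seen. With 3 mice per genotype, exact tests between members cannot go below *P* = 0.1.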
